A study of Mus musculus with 33 samples.

Results

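Paeonol is a phenolic ketone from Paeony root. The comparison described here asked how RNA levels with paeonol at its highest dose, 100 µg/ml, differed from those at 1 and 10 µg/ml in cells that all carried the same inflammatory stimulus. The members were the 9 arrays of the 3 paeonol groups, 3 per dose, out of 33 arrays in the series. Arrays were compared within replicate number, which marks a shared scan day, and no array of LPS alone stood on either side. All 33012 gene probes of the scanner tables were candidates, and 19437 could be tested.

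The cells were RAW264.7, a mouse macrophage-like line. Each paeonol group had received lipopolysaccharide (LPS) at 1 µg/ml for 6 h together with paeonol at 1, 10 or 100 µg/ml, so LPS was common to both sides of the comparison. The other groups of the series were vehicle (0.1% DMSO), LPS alone, and LPS with albiflorin or paeoniflorin, both monoterpene glycosides of the same plant, at the same 3 doses for 6 h. The design text calls the 3 arrays of a group biological replicates, and nothing says how the cultures were kept apart, so p-values measure the spread between these samples only.

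LPS is a component of the wall of Gram-negative bacteria that macrophages sense through the receptor TLR4. The signal runs through adaptor proteins to the NF-kB, interferon-regulatory and AP-1 transcription factors, which switch on cytokine, interferon-response and metabolic genes and lower many others. Jun is the founding member of the AP-1 family and binds DNA as a dimer with Fos, ATF or other Jun proteins. Shbg encodes sex hormone-binding globulin, a steroid carrier known mainly as a secreted product of liver in humans and of testis in mice.

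The paeonol arrays had a median signal before normalization of 485 to 971 and detected 42.3% to 47.4% of the gene probes. The arrays at 100 µg/ml lay at the upper end, at 761 to 971 and 46.5% to 47.4%, and the part of this in the results was not tested. Paeonol 10 replicate 3 carried 2011 quality-flagged probes, against at most 406 on another paeonol array. Of the 10 macrophage markers chosen for a check of the cell type, only Cebpb could be named on this array, and it was detected on all 9 paeonol arrays. RNA came from whole cultures, so fewer responding cells and less RNA per cell cannot be told apart.

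At 100 µg/ml, 43 probes fell and 11 rose against the mean of the lower doses (limma, Benjamini-Hochberg adjusted p under 0.05). This was 0.278% of the probes tested, with 0.221% lower and 0.0566% higher. Both named genes among them, Shbg and Jun, fell. Of the 54 probes, 16 were at least 2-fold lower and 4 at least 2-fold higher, the log2 difference had a size of 0.42 to 1.92 with a median of 0.75, and 44 were detected on all 9 arrays. The difference had the same sign on 3 of 3 days at 52 of them. The calls came from these same arrays with the replicate block, so this agreement was largely set by the choice of probes. No share over all probes tested stands beside it. The 3 arrays at 100 µg/ml lay below all 6 lower-dose arrays at 33 of the 43 that fell and above them at 9 of the 11 that rose. Over the 18176 probes with values on all 9 arrays, 5.62% did not overlap in this way, 3.55% above and 2.07% below.

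At an unadjusted p under 0.05 there were 1985 probes, against 972 expected if no probe differed. Without the replicate block 6 probes were called, 4 lower and 2 higher. With median in place of quantile normalization, 12 probes were called, 8 lower and 4 higher, and with the 9 paeonol arrays fitted alone limma called 0, with 2636 at an unadjusted p under 0.05. Without paeonol 100 replicate 1 or without replicate 2, 7 probes were called each time. All 54 kept their sign in both cases, but they had been chosen with these arrays included.

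Jun was lowest at 100 µg/ml on every scan day. Its level, as log2 normalized signal, was 15.27, 15.09 and 14.94 in replicates 1 to 3 at 1 µg/ml. It was 14.97, 14.999 and 14.70 at 10 µg/ml and 14.32, 14.24 and 14.37 at 100 µg/ml. The 3 arrays of the highest dose lay below the other 6, and they spread less than those. The mean went from 14.99 ± 0.187 (SD, n = 6) to 14.31 ± 0.0628 (SD, n = 3), a log2 difference of -0.68 ± 0.124 SE (95% interval -0.94 to -0.43, 1.61-fold lower, limma adjusted p = 0.0185). Within days the difference was -0.80, -0.80 and -0.45. The limma call was lost when the replicate block was left out (adjusted p = 0.0787), under median normalization (0.409), with no detection filter (0.0648) and with the 9 paeonol arrays fitted alone (0.285). It was also lost without paeonol 1 replicate 1 (0.0528) and without paeonol 100 replicate 1 (0.140) or 2 (0.218).

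Against the neighbouring doses, Jun at 100 µg/ml differed by -0.79 from 1 µg/ml (limma adjusted p = 0.0237) and by -0.58 from 10 µg/ml (limma adjusted p = 0.139, not called). These comparisons share the arrays at 100 µg/ml. The slope on log10 dose was -0.40 ± 0.0719 SE log2 per 10-fold dose (limma adjusted p = 0.0237). The exact permutation of doses within days gave p = 0.037 for the contrast (two-sided), the smallest that 27 arrangements allow, and p = 0.00926 for the slope, the smallest its arrangements allow. Jun had been proposed with earlier results of these data known, so these p-values are not those of a gene chosen without sight of the data. The limma call of the Jun slope was lost in 10 of 21 alternatives, among them no replicate block (adjusted p = 0.119) and leaving out any 1 array at 1 µg/ml or replicate 1 or 2 at 100 µg/ml (highest 0.207). LPS itself did not move Jun past the threshold at 6 h, with 14.68 ± 0.384 (SD, n = 3) after LPS and 14.46 ± 0.118 in vehicle (limma adjusted p = 0.355). The level at 100 µg/ml was thus close to that of vehicle, and the level at 1 µg/ml lay above that of LPS alone.

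Shbg had the larger difference of the pair. Its log2 level was 12.07, 11.94 and 12.22 at 1 µg/ml, 12.18, 11.44 and 12.08 at 10 µg/ml, and 10.70, 10.10 and 11.20 at 100 µg/ml. All 9 arrays detected it, and no array at 100 µg/ml reached the lowest of the other 6. The mean went from 11.99 ± 0.288 (SD, n = 6) to 10.66 ± 0.553 (SD, n = 3), a log2 difference of -1.32 ± 0.183 SE (95% interval -1.70 to -0.94, 2.50-fold lower, limma adjusted p = 0.00100). Replicate 2 was the lowest of its dose at each dose, and the difference within days was -1.43, -1.59 and -0.95. The call was lost without the replicate block (limma adjusted p = 0.0787) and with the 9 paeonol arrays fitted alone (0.285), and it held when any 1 paeonol array was left out (highest limma adjusted p = 0.0383).

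The Shbg level at 100 µg/ml differed by -1.41 from 1 µg/ml (limma adjusted p = 0.00512) and by -1.24 from 10 µg/ml (limma adjusted p = 0.0231), again on shared arrays. The slope was -0.71 ± 0.106 SE log2 per 10-fold dose (limma adjusted p = 0.00512), and the exact permutation test (two-sided) gave p = 0.037 for the contrast and p = 0.0185 for the slope. Shbg too had been proposed with earlier results of these data known, which limits these p-values in the same way. The limma call of the Shbg slope was lost without the replicate block (adjusted p = 0.196), with the 9 paeonol arrays alone (0.338), with dose as a linear term (0.337), and without paeonol 100 replicate 1 or 2 (highest 0.0730). LPS alone stood at 12.22 ± 0.61 (SD, n = 3), close to both lower doses. Vehicle stood at 8.37 ± 0.148, with 0 of 3 arrays detecting it, so that the level at 100 µg/ml lay between the 2 controls.

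**Figure D1:**
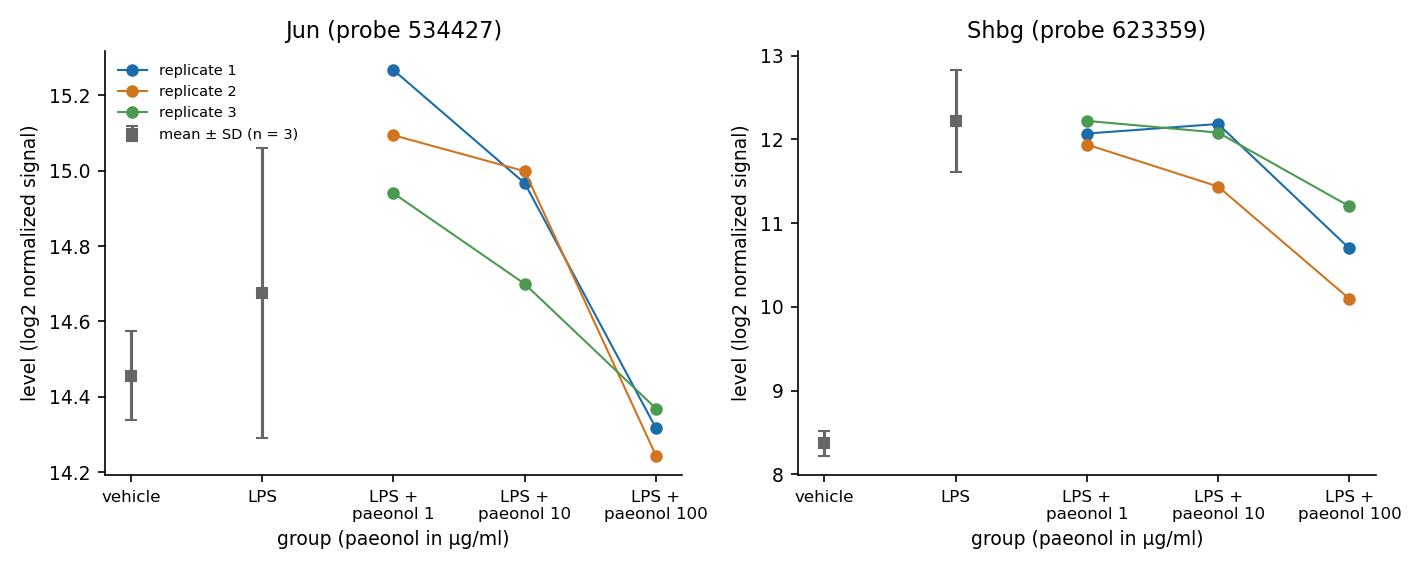
Log2 normalized signal of Jun and Shbg on each paeonol array (coloured lines join the arrays of one replicate number) beside the mean ± SD of the 3 vehicle and the 3 LPS-alone arrays. On all 3 days both genes were lower at 100 µg/ml than at 1 or 10 µg/ml, and the step from 1 to 10 µg/ml was smaller.

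The 250 bases before the start of both genes are shown because they were the named genes that fell together. The windows are from RefSeq on build GRCm38.p6, both on the minus strand, at chr4:95052223-95052472 for Jun and chr11:69617906-69618155 for Shbg, and read 5′ to 3′ towards the gene. Capitals mark matches, on either strand, to any of 4 patterns: TGACATCA, the CRE-like AP-1 element known from the Jun promoter, TGANTCA, the classical AP-1 element, CCAAT, and TATTTTTAG, part of a MEF2 element, where N is any base.
Jun: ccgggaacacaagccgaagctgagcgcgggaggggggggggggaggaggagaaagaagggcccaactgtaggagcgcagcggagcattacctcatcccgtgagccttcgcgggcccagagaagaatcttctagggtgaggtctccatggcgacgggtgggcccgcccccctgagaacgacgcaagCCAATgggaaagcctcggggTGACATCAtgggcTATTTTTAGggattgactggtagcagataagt
Shbg: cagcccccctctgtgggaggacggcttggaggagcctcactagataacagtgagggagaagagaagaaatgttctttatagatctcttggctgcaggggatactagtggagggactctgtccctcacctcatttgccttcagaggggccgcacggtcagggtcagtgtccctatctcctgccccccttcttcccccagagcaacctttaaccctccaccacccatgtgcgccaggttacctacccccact

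The Jun window held CCAAT from 65 to 61 bases, TGACATCA from 45 to 38 bases and TATTTTTAG from 32 to 24 bases before the start, with no overlap between them, and no match to TGANTCA. The Shbg window held none of the 4 patterns. Among 32851 RefSeq windows of the same length, TGACATCA occurred in 2.93%, TGANTCA in 6.75%, CCAAT in 33.8% and TATTTTTAG in 0.469%. TGACATCA was searched as an element known from the Jun promoter, so its match in the Jun window was set by that choice. These matches describe letters only, and binding was not measured.

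Among the called probes without a gene name here that were detected on all arrays of the side where they were higher, the 2 farthest below 0 were probes 915752 and 524988, and the 2 farthest above it were 604718 and 394196. Unnamed probe 871811 fell by 1.92 on the log2 scale but was detected on 4 of the 6 lower-dose arrays, so it lay outside this rule. Probe 604718 had log2 levels of 16.75, 16.57 and 16.53 at 1 µg/ml, 16.71, 16.41 and 16.39 at 10 µg/ml, and 18.22, 17.85 and 17.81 at 100 µg/ml. The lower doses differed little, and each array at the highest dose lay more than 1 log2 unit above them. The difference was 1.40 ± 0.153 SE (2.64-fold, limma adjusted p = 0.000111). LPS had lowered this probe from 17.49 in vehicle to 16.15, so the level at 100 µg/ml lay above that of vehicle.

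Probe 524988, raised by LPS from 13.50 to 15.98, stood at 15.96 ± 0.227 (SD, n = 6) at the lower doses and at 13.43, 13.68 and 15.35 at 100 µg/ml. The difference was -1.81 ± 0.289 SE (3.51-fold lower, limma adjusted p = 0.00714), and replicate 3 stood well above the other arrays of its dose. Probe 915752 went from 12.01 ± 0.532 to 10.16 ± 1.00, a difference of -1.85 ± 0.399 SE (limma adjusted p = 0.0489), with 2 of 3 arrays detected at 100 µg/ml. Probe 394196 went from 10.19 ± 0.607 to 11.30 ± 0.262, a difference of 1.11 ± 0.213 SE (limma adjusted p = 0.0245). It was detected on 2 of the 6 lower-dose arrays and on 3 of 3 at 100 µg/ml.

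Of the 183 named probes tested, 2 fell and 0 rose, while 98 were lower and 85 higher by sign, and their median log2 difference was -0.04 against 0.03 over all probes tested. At an unadjusted p under 0.05, 13 were lower and 9 higher. Most named genes therefore gave values that did not pass, and these are given here by role.

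Of the gene lists, 3 innate sensing genes (Nlrp3, Tlr7 and Wdfy1) and 2 interferon response genes (Ifi202b and Trim34a) were tested, all lower by sign and 0 called. Csprs and C130026I21Rik were named genes of the LPS-raised list. Csprs stood at 16.59, 16.40 and 16.69 at 1 µg/ml, 16.43, 16.89 and 16.45 at 10 µg/ml, and 15.67, 15.86 and 16.28 at 100 µg/ml. Its 3 arrays at the highest dose were the lowest of the 9, but the difference of -0.64 ± 0.199 SE was not called (limma adjusted p = 0.210). Ifi202b, an interferon-inducible DNA-binding protein, also had its 3 arrays at the highest dose lowest, with a smaller difference of -0.39 ± 0.176 SE (limma adjusted p = 0.454). Over all probes with values on all 9 arrays, 2.07% lay below in this way. Csprs and Ifi202b were also among the 10 named genes of smallest p that fell, which made this order likely. Trim34a, an interferon-inducible TRIM protein, differed by -0.31 ± 0.258 SE and C130026I21Rik by -0.44 ± 0.172 SE, both with overlapping arrays. Nlrp3, the sensor of the NLRP3 inflammasome, differed by -0.49 ± 0.348 SE. Tlr7, the endosomal receptor for single-stranded RNA, differed by -0.10 ± 0.300 SE with a paeonol value missing, and Wdfy1 by -0.02 ± 0.403 SE. None of these passed (limma adjusted p of at least 0.210).

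Among transcription factors and signalling proteins, Jun and Cebpb were the only bZIP factors of 14 listed that could be named. Cebpb, an LPS-induced factor of macrophages, lay higher at 100 µg/ml on all 3 arrays of probe 450590, by 0.23 ± 0.147 SE, and by 0.69 ± 0.561 SE at probe 640455, without a call. Of all probes with values on all 9 arrays, 3.55% lay above the lower doses as probe 450590 did. Stat5a and Stat5b, which carry cytokine receptor signals to DNA, differed by -0.17 ± 0.336 SE and -0.09 ± 0.123 SE. Rraga and Smcr8, which act in amino acid sensing and autophagy at the lysosome, differed by -0.07 ± 0.124 SE and -0.22 ± 0.155 SE, and Eif4ebp1, a repressor of cap-dependent translation, by 0.66 ± 0.363 SE. Eif4ebp1 was detected on 0 of the 9 paeonol arrays, so its value compares signals that did not reach detection. Tnfsf13, the B cell survival factor APRIL, differed by 0.03 ± 0.136 SE. It was the only one of 16 listed inflammatory mediators with a name here, and 0 of 7 listed oxidative stress genes had one.

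The named genes that ranked highest on the other side included Foxn3, a forkhead repressor, with 0.54 ± 0.172 SE (limma adjusted p = 0.232). Hsd17b10, a mitochondrial dehydrogenase, stood at 15.89, 16.12 and 15.80 at 1 µg/ml, 16.08, 16.11 and 15.98 at 10 µg/ml, and 16.24, 16.53 and 16.19 at 100 µg/ml. Its difference was 0.32 ± 0.113 SE (limma adjusted p = 0.289), and the highest dose did not overlap the others. Of the other dehydrogenases, Dhrs7b differed by 0.31 ± 0.189 SE and Aldh3a2, which oxidizes fatty aldehydes, by -0.27 ± 0.154 SE. Trim59 lay above the lower doses on all 3 arrays at 0.34 ± 0.123 SE (limma adjusted p = 0.300). Zbtb18, Nupr1l and Hba-a1 also had no overlap, at 0.33, 0.43 and 0.88, and Mos, Dynlt1b and Lgals1 were higher by 0.79, 0.29 and 0.28 with overlap. Hba-a1 was detected on 1 of the 6 lower-dose arrays. A430057M04Rik had the highest difference of the named genes, 1.43 ± 0.661 SE, but 0 of 3 arrays detected it at 10 µg/ml. On the lower side Ndn (-0.88), Tcp10b (-0.86), H2bc13 (-0.36) and Psme3 (-0.31) overlapped between doses.

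**Figure D2:**
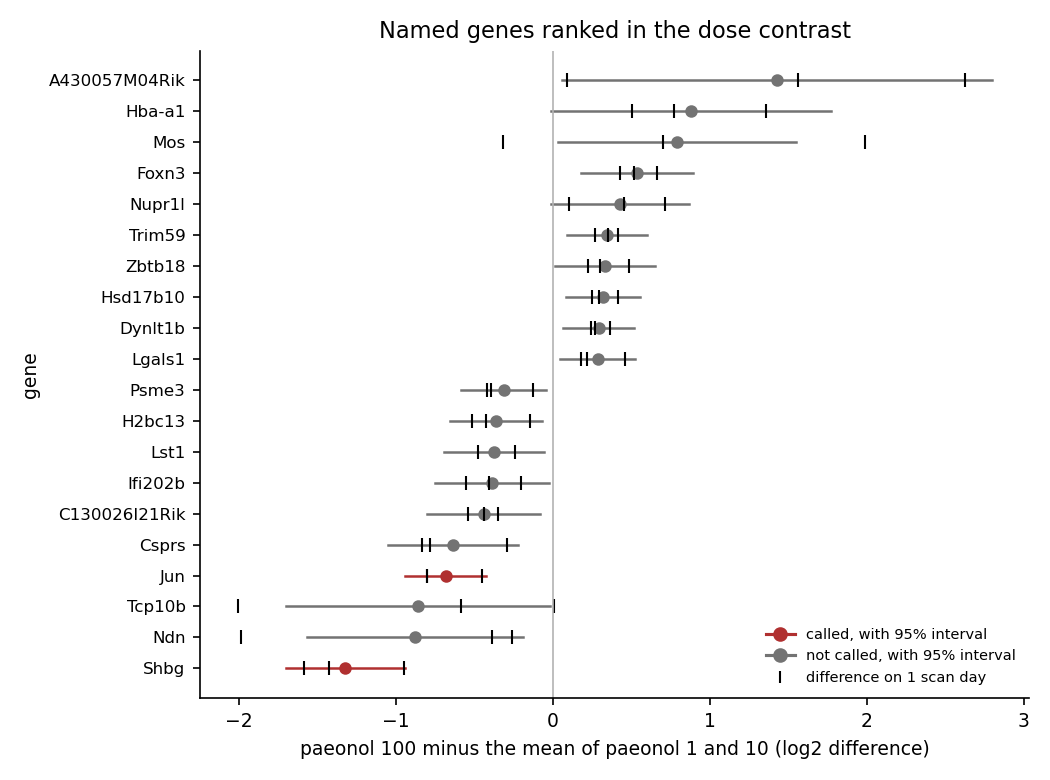
Log2 difference of paeonol 100 µg/ml from the mean of 1 and 10 µg/ml for the 10 named genes of smallest p in each direction, with the 95% interval of the limma fit and ticks for the difference on each of the 3 scan days. Shbg at -1.32 and Jun at -0.68 (red) were called, and the other genes were not.

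The dose order of the called probes was examined with the comparison of 10 against 1 µg/ml. Its estimate is uncorrelated with that of the contrast by construction where no value is missing. Both tests use the same estimate of each probe's spread, so their p-values are not independent. Limma called 0 probes between these doses (0% of those tested), with 908 at an unadjusted p under 0.05 against 972 expected. The 95% interval excluded a 2-fold difference for 58.3% of probes, so for the rest a 2-fold step lay within the error at this number of arrays. For Jun the difference of 10 from 1 µg/ml was -0.21 (95% interval -0.51 to 0.09) and for Shbg -0.18 (-0.61 to 0.26).

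Over the 54 called probes the median of 10 minus 1 µg/ml, taken in the direction of the call, was 0.03. At 6 of the 54 the unadjusted limma p was under 0.05, against 908 of 19437 over all probes tested. Probes called with a small estimated spread also get a smaller p here, so these 6 are not an independent check. The level at 10 µg/ml lay between the other 2 doses at 31 of 54. If the lower doses did not differ, the step between them would take either sign equally often. This count alone therefore does not show an order by dose. The lower-dose mean was within 0.5 log2 units of LPS alone at 47 of 54, with a median difference of 0.01 in the direction of the call, while the mean at 100 µg/ml differed from LPS alone by a median of 0.77. All 43 probes that fell had a mean at 100 µg/ml below that of LPS alone. The 54 probes were chosen for their level at 100 µg/ml, so this count and the median of 0.77 were largely set by that choice. No share over all probes tested stands beside these counts.

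The single-dose comparisons gave fewer calls. At 100 against 1 µg/ml limma called 26 probes, 18 lower and 8 higher, which is 0.134% of those tested (0.0926% lower and 0.0412% higher), and the slope on log10 dose is the same test and gave the same 26. At 100 against 10 µg/ml it called 15 probes, 12 lower and 3 higher, or 0.0772% (0.0617% lower and 0.0154% higher). Of the 26 slope calls 22 were also among the 54, as the arrays are shared. The counts against 1 and 10 µg/ml were 4 and 4 without the replicate block, 0 and 0 with the 9 paeonol arrays alone, and 4 and 1 under median normalization. Leaving out 1 array gave 4 to 79 and 3 to 29, with 4 for the first without paeonol 1 replicate 1 or paeonol 100 replicate 1 and 5 without paeonol 100 replicate 2. Unnamed probe 569473, the slope call with the steepest fall among probes with full detection on the higher side that were not given above, had a slope of -0.67 ± 0.0894 SE log2 per 10-fold dose (limma adjusted p = 0.0012), from 11.85, 11.94 and 12.02 at 1 µg/ml to 10.46, 10.58 and 10.73 at 100 µg/ml. At the highest dose 1 of 3 arrays detected it.

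**Figure D3:**
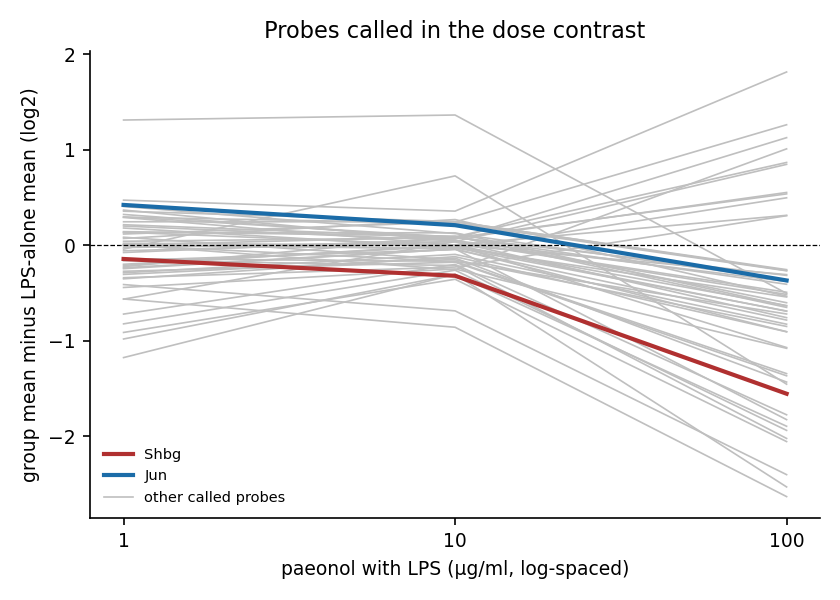
Mean of each paeonol dose minus the mean of LPS alone (log2) for the 54 probes called in the dose contrast, which chose them for their level at 100 µg/ml. Between 1 and 10 µg/ml the lines stay mostly flat, with a median change of 0.03 in the direction of the call, and Jun and Shbg are drawn in colour.

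The response to LPS was then set beside the dose contrast, since LPS against vehicle shares no array with it. Limma called 3774 probes after LPS, 19.4% of those tested, 8.06% higher and 11.4% lower. Of the 43 probes that fell with paeonol at 100 µg/ml, 28 had risen after LPS, 2 had fallen and 13 were not called. Of the 11 that rose, 7 had fallen after LPS, 1 had risen and 3 were not called. Most called probes thus lay opposite to the LPS response, and Shbg was among them while Jun was not called after LPS.

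The same direction was seen at most LPS-responsive probes. The 929 probes raised at least 2-fold by LPS had a median log2 difference of -0.29 between 100 µg/ml and the lower doses, with 755 (81.3%) lower, against a median of 0.03 over all probes tested, of which 54.0% were higher. The 863 probes lowered at least 2-fold had a median of 0.25, with 716 (83.0%) higher. Within days the LPS-raised median was -0.26, -0.47 and -0.14 and the LPS-lowered median 0.19, 0.39 and 0.15, while the median over all probes was 0.02, 0.01 and 0.03. All 3 days thus had the same sign in each list, with replicate 2 farthest from 0.

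The difference was larger for probes with a larger LPS response. Among LPS-raised probes the median was -0.22 for the 506 raised 2 to 4-fold, -0.29 for the 225 raised 4 to 8-fold and -0.50 for the 198 raised 8-fold or more, where 90.9% were lower. Among LPS-lowered probes it was 0.24 for 733 probes lowered 2 to 4-fold, 0.41 for 121 lowered 4 to 8-fold and 0.63 for 9 lowered more. Few single probes passed the test: 21 LPS-raised probes (2.26%) fell and 0 rose, and 6 LPS-lowered probes (0.695%) rose and 0 fell. At an unadjusted p under 0.05, 28.6% of LPS-raised probes were lower, against 5.22% of all. Among LPS-raised probes the same contrast of albiflorin was graded in the same direction at smaller size, as given below.

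The height of the LPS response was also taken against vehicle. The LPS-raised probes lay a median of 1.92 ± 0.223 (SD, n = 3 arrays) log2 units above the vehicle mean with LPS alone. With paeonol the median was 1.70 ± 0.154 at 1 µg/ml, 1.80 ± 0.168 at 10 µg/ml and 1.48 ± 0.168 at 100 µg/ml. By array it was 1.65, 1.58 and 1.88 at 1 µg/ml, 1.66, 1.98 and 1.76 at 10 µg/ml, and 1.42, 1.35 and 1.67 at 100 µg/ml. Replicate 3 at 100 µg/ml reached above the lowest arrays of both lower doses, so the groups overlapped between days though not within them. The LPS-lowered probes lay at -1.24 ± 0.0999, -1.33 ± 0.157 and -1.04 ± 0.0719 from 1 to 100 µg/ml, against -1.41 ± 0.136 with LPS alone. Both lists were chosen on the LPS-alone and vehicle arrays, so the LPS-alone medians were partly set by that choice. From 1 to 100 µg/ml the LPS-raised median was 1.97, 1.78 and 1.79 with albiflorin and 1.85, 1.68 and 1.73 with paeoniflorin. The LPS-lowered median was -1.42, -1.36 and -1.46 with albiflorin and -1.35, -1.15 and -1.23 with paeoniflorin. Whether the lower paeonol doses differ from LPS alone in these lists was not tested.

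Between 10 and 1 µg/ml the pooled median of both lists moved the other way. The LPS-raised median was 0.13 with 69.1% of probes higher, and the LPS-lowered median was -0.11 with 65.9% lower. In replicates 1 to 3 the LPS-raised median by array went from 1.65 to 1.66, 1.58 to 1.98 and 1.88 to 1.76. The days thus disagreed, and replicate 2 had the largest step. The LPS-lowered median went from -1.14 to -1.19, -1.34 to -1.50 and -1.23 to -1.29, lower on each day. The order of the pooled medians by dose was therefore not that of the dose. A difference between the lower doses was not tested in these lists.

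The named genes of an LPS-raised list chosen with earlier results known were 15 genes on 16 probes, of which 13 were lower and 3 higher by sign, with a median of -0.18. Of these Shbg fell and 0 rose. Of the 10 LPS-lowered named genes 8 were higher, 0 were called and the median was 0.34. Nanos1, an RNA-binding regulator of translation known from germ cells, differed by 0.70 ± 0.384 SE and Tbc1d16, a Rab GTPase-activating protein, by 0.38 ± 0.208 SE. Frat2, a regulator of GSK3 in Wnt signalling, went the other way at -1.05 ± 0.487 SE, with overlapping arrays. Frat2 was detected on 1 of the 9 paeonol arrays, and its level of 12.38 at paeonol 10 replicate 1 stood apart from the others (7.69 to 9.76). Bcl2a1b, an anti-apoptotic gene raised by LPS, differed by 0.05 ± 0.112 SE.

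**Figure D4:**
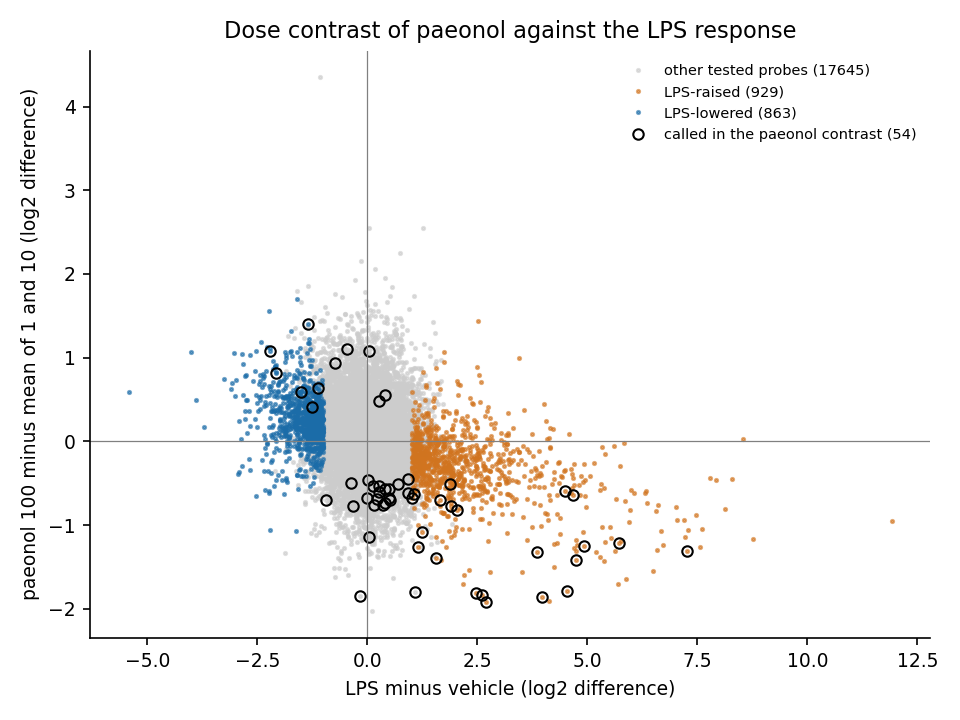
Log2 difference of paeonol 100 µg/ml from the mean of 1 and 10 µg/ml (vertical axis) against the log2 difference of LPS from vehicle (horizontal axis) for every probe tested, with LPS-raised and LPS-lowered probes in colour and the 54 called probes circled. LPS-raised probes lay mostly below 0 (81.3%) and LPS-lowered probes mostly above 0 (83.0%).

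The same contrast, 100 µg/ml against the mean of 1 and 10 µg/ml, was taken for albiflorin and paeoniflorin at matched doses and time, which gives 2 pairs of compounds. Neither glycoside had a call of its own (0% of probes for each in limma), with 809 probes for albiflorin and 834 for paeoniflorin at an unadjusted p under 0.05. The difference between the contrasts was called at 1 probe for paeonol against albiflorin, unnamed probe 604718, and at 1 for paeonol against paeoniflorin, Shbg, each 0.00514% of probes. Both counts were 0 without the replicate block, with no detection filter, and without paeonol 100 replicate 1 or 2 or paeonol 10 replicate 3. The albiflorin count was also 0 under median normalization and without paeonol 1 replicate 1 or 3, and the paeoniflorin count in the authors' processed values and without paeonol 1 replicate 2 or paeonol 10 replicate 1.

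Shbg differed between the contrasts of paeonol and paeoniflorin by -1.71 ± 0.259 SE (limma adjusted p = 0.0233), a call that was lost under each of the settings just named for paeoniflorin. Its mean with paeoniflorin was 11.82, 11.95 and 12.27 at 1, 10 and 100 µg/ml. Against albiflorin, where it was 11.75, 11.81 and 11.69, the difference of -1.23 ± 0.259 SE did not pass (limma adjusted p = 0.171, 95% interval -1.77 to -0.69). For Jun the differences of -0.57 ± 0.176 SE from albiflorin and -0.64 ± 0.176 SE from paeoniflorin did not pass (limma adjusted p = 0.415 and 0.355). The p-values were adjusted over all probes within each pair, and a further adjustment over the pairs was not made.

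Over the LPS-raised probes the median contrast within days was -0.27, -0.07 and -0.03 for albiflorin and 0.00, -0.22 and 0.05 for paeoniflorin, ranges that overlapped those of paeonol. Over the LPS-lowered probes it was 0.12, -0.09 and -0.16 for albiflorin, all below the paeonol values, and -0.09, 0.16 and 0.03 for paeoniflorin, which overlapped them. Paeonol had the same sign on all 3 days in both lists, albiflorin in the LPS-raised list, where 680 of 929 probes (73.2%) were lower, and paeoniflorin in neither. The first paeoniflorin value in each list rests in part on paeoniflorin 10 replicate 1, which stood apart from the other arrays (median r 0.906, 38.2% of probes detected). Its LPS-lowered median against vehicle was -0.98, beside -1.26 and -1.19 in replicate 1 at 1 and 100 µg/ml. Day values without this array were not computed. For albiflorin the median was -0.10, -0.13 and -0.16 for probes raised 2 to 4-fold, 4 to 8-fold and 8-fold or more by LPS. In the last group 82.8% were lower. Paeoniflorin had -0.03, 0.01 and -0.08 in these groups. Among LPS-lowered probes, grouped the same way, albiflorin had -0.06, -0.01 and -0.23. Whether the list medians differ between compounds was not tested.

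**Figure D5:**
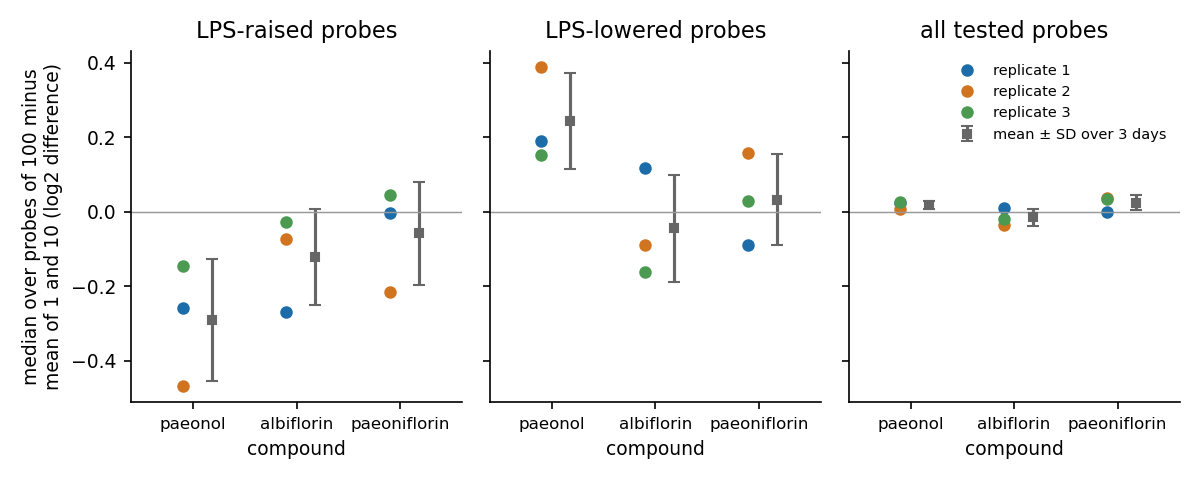
Median over probes of the log2 difference of 100 µg/ml from the mean of 1 and 10 µg/ml for each compound on each of the 3 scan days (circles, with the mean ± SD as squares), for LPS-raised, LPS-lowered and all tested probes. Paeonol lay between -0.47 and -0.14 in the first list and between 0.15 and 0.39 in the second.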

How the data were processed

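RNA of 33 cultures was converted to digoxigenin-labelled cRNA and read, through its chemiluminescence, on 1-colour Applied Biosystems mouse arrays, per the labels' protocols. The deposited scanner tables give each probe a linear intensity that was not yet normalized across arrays, a score of signal over noise and a flag for spot quality, per the file headers. A further deposited table holds the authors' log2 values. Their normalization is not given in the sources used here, and the table served as an alternative.

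Spots with a flag above 5000 were set missing. The rest were quantile normalized, floored at the 5th percentile (165.7) and taken to log2. Probes were tested if at least 3 arrays of the 33 had a signal over noise of 3 or higher (19438, or 19437 where a group had no value). Names came from RefSeq (GRCm38.p6), through transcript identifiers for 311 probes and through a matching gene symbol or synonym for 6 with a GenBank identifier. Thus 317 of 33012 probes had 1 symbol, and none of 27930 with a Celera identifier. The remaining probes are given by number, and may well have a gene.

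All 33 arrays entered 1 model of 11 group means with the replicate number as a block (limma 3.58.1, R 4.3.3, lmFit and eBayes, two-sided, Benjamini-Hochberg over all probes). Standard errors of probes with missing values were computed from their own design. Residual degrees of freedom ran from 11 to 20, with a prior of 2.06. Slopes were the difference of 100 from 1 µg/ml divided by 2, per unit of log10 dose. Per the file headers each replicate number is 1 scan day, on 33 of 33 arrays. Same-numbered arrays of different paeonol doses had correlated deviations from their group means in 9 of 9 pairs (median r = 0.271, lowest 0.136). Other pairs had a median of -0.165. Taking deviations from the group's own mean makes these negative when same-numbered pairs are positive, so this value adds nothing to the first.

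Jun and Shbg were named with the comparison and had been proposed with earlier results of these data known. Otherwise the named genes are the 10 of smallest p each way with full detection on one side, any called, and the tested members of fixed lists. Members and lists were chosen with earlier results of these data known. For unnamed probes, the 2 highest and 2 lowest called with detection on all arrays of the higher side are given. In simulated data 59 of 100 probes shifted 2-fold and 81 of 100 shifted 4-fold were recovered in the dose contrast among 17653 probes, with 7 false calls. The simulated noise was normal and independent between arrays. These numbers therefore do not cover effects shared by arrays, such as those of the control-spot groups. Precision is limited by the number of arrays, with a median standard error of 0.254 in the dose contrast. Alternatives varied the block, the arrays fitted, the normalization, filter, floor, flags, prior and single arrays.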

Additional observations from a re-analysis of the deposited data

Results flagged for a closer look

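A pair of results stood out because the paeonol contrast differed from the same contrast of another compound in a test of the difference itself. Unnamed probe 604718 differed between paeonol and albiflorin by 1.43 log2 units (limma adjusted p = 0.0217), from contrasts of 1.40 for paeonol and -0.03 for albiflorin. Shbg differed between paeonol and paeoniflorin by -1.71 log2 units (limma adjusted p = 0.0233), from contrasts of -1.32 and 0.39. Paeonol had the same direction on 3 of 3 days at both probes, which were called on these same arrays. The first call was lost without the replicate block, under median normalization, with no detection filter, and without paeonol 1 replicate 1 or 3, paeonol 10 replicate 3 or paeonol 100 replicate 1 or 2. The second was lost without the block, in the authors' processed values, with no detection filter, with a further block for groups of arrays that stand apart in the control spots, and without paeonol 1 replicate 2, paeonol 10 replicate 1 or 3 or paeonol 100 replicate 1 or 2. No cause was examined.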

How the results depend on the processing

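The counts of calls depended on the model more than the sizes did. All 54 calls that were tested under an alternative kept their sign, also where 0 were called, which their choice on the same arrays made likely. The list medians kept their sign in 20 of 20 alternatives (LPS-raised -0.38 to -0.17, LPS-lowered 0.17 to 0.35). Counts below are for 100 µg/ml against both lower doses, against 1 µg/ml (and the slope), against 10 µg/ml, and for the differences from albiflorin and paeoniflorin, where limma in the model used gave 54, 26, 15, 1 and 1. Without the replicate block, which pairs arrays of 1 scan day, they were 6, 4, 4, 0 and 0, and the limma adjusted p was 0.0787 for both Jun (log2 -0.68) and Shbg (-1.32), and 0.119 and 0.196 for their slopes (-0.40 and -0.71). The 9 paeonol arrays alone gave 0 calls in the first 3, with Jun and Shbg at 0.285 (slopes 0.338), and dose as a linear term gave 0 (0.337 for both). This fit has fewer residual degrees of freedom. Median normalization gave 12, 4, 1, 0 and 2, with Jun at -0.56 (0.409) and its slope at -0.38 (0.366). No detection filter gave 8, 9, 7, 0 and 0, with Jun at 0.0648 and its slope at 0.0837. Probes detected on all 9 arrays gave 88, 49, 24, 2 and 13. A prior with trend and robust estimation gave 40 for 1 µg/ml and the slope, 3 and 7. Kept flagged spots gave 24 for 10 µg/ml, and the authors' processed values gave 0 for paeoniflorin. Without paeoniflorin 10 replicate 1, which stood apart from the other arrays, they were 108, 79, 29, 2 and 5. Groups of arrays that stand apart in the control spots, an alternative chosen after seeing the data, gave 296, 146, 44, 4 and 1 as a further block, where the last was a higher probe, so that the difference at Shbg was not called. The cause of these differences was not tested.

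Leaving out single arrays gave 7 to 108, 4 to 79, 3 to 29, 0 to 6 and 0 to 8 calls, and 0 to 3 for 10 against 1 µg/ml. The first count was 17 without paeonol 1 replicate 1, 30 without its replicate 3, 29, 25 and 35 without paeonol 10 replicates 1 to 3, and 7 without paeonol 100 replicate 1 or 2. Jun ran from -0.77 to -0.60 (adjusted p 0.0108 to 0.218) and its slope from -0.44 to -0.35. It lost its call without paeonol 1 replicate 1 (0.0528) or paeonol 100 replicates 1 (0.140) and 2 (0.218). Shbg ran from -1.50 to -1.20 and stayed called in each (0.000743 to 0.0383), and its slope ran from -0.80 to -0.64 (highest adjusted p 0.0730). Over the 50 other results, 927 values stayed on their side of the threshold or within the spread, 29 moved, 28 lost a call and 2 gained one (Csprs and Dynlt1b, with the control-spot groups). An array batch planned as a block was not run, since the headers name no array batch.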
